A study of Mus musculus with 8 samples.

Results

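The optic fissure of the mouse embryo was compared here between embryonic days 10.5 (E10.5) and 11.5 (E11.5). The members are the genes that the array names, 18194 of them. The comparison took every probe set of the deposited table with a single gene symbol, 34945 of 45101, and asked of each whether its log2 signal differed between the 3 arrays of E11.5 and the 3 arrays of E10.5. These were 6 of the 8 arrays of the series, and the other 2, from embryonic day 12.5 (E12.5), served to estimate the spread. A filter on mean signal kept 22650 of the single-gene probe sets, which covered 13050 genes.

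The embryos of both stages were wild type, of the strain labelled C57BL/6 in one field and C57BL6/J in another, and differed only in their age. Fissure tissue was cut from frozen sections with a laser, lysates of 3 embryos were pooled for an array, and the RNA was amplified before labelling. The labels give the 3 embryos of a pool as littermates in one field and as embryos of separate litters in another. They name the arrays of a stage as biological replicates, called A, B and C here, so an array carries the average of its pool.

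The optic cup forms by folding of the optic vesicle, and its lower side forms a fissure through which vessels and mesenchyme enter the eye. The margins of the fissure are made of neural retina on the inside and pigment epithelium on the outside, with periocular mesenchyme and basement membrane between and around them. The margins approach, align and fuse, and failure to fuse leaves a coloboma. Melanin is made in the pigment epithelium, in melanosomes, by tyrosinase and its relatives under the transcription factor MITF, while hedgehog signals from the ventral midline pattern the stalk and the ventral cup.

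The signal range of the arrays differed between the stages, and this bears on every value below. The 99th percentile of log2 signal was 12.91, 12.53 and 12.85 on E10.5 arrays A, B and C and 11.17, 11.81 and 12.37 on E11.5 arrays A, B and C. All E11.5 arrays thus lay below all E10.5 arrays, with E11.5 A the lowest, and the stages differed by -0.99 (12.8 ± 0.20 and 11.8 ± 0.60, SD, n = 3 each; exact two-sided permutation p = 0.1, the smallest that 3 against 3 arrays can give). The medians differed by -0.035 (p = 0.4 in the same exact permutation test). The ratio of 3 prime to 5 prime signal of the Actb control, which follows how far transcripts were shortened, was 6.92 ± 0.07 at E10.5 and 6.16 ± 0.62 at E11.5 on the log2 scale (SD, n = 3 each; exact permutation p = 0.1), and its part in the results was not tested.

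**Figure D1:**
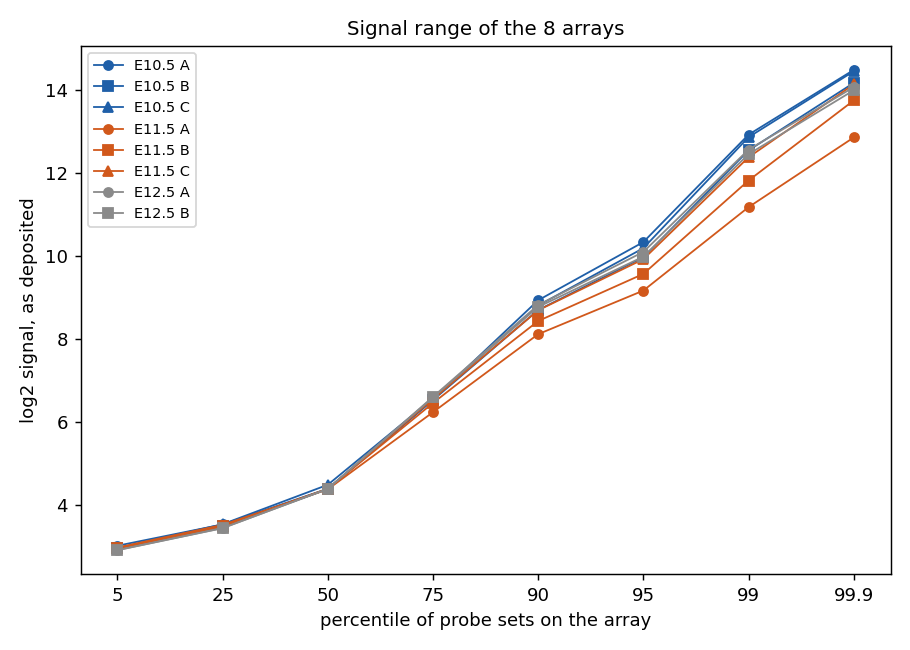
Log2 signal (y axis) at rising percentiles of probe sets (x axis) on each array, as deposited. A line stands for an array, coloured by stage, with the marker giving its letter. The arrays lie together up to the median, and above it E11.5 A and B run lowest, E11.5 A down to 11.17 at the 99th percentile.

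The difference between the stages followed signal strength. Probe sets were put in 10 equal bins by mean signal. In the dimmest bin the median difference, E11.5 minus E10.5, was -0.03, and in the brightest it was -0.82, where 97.4% of probe sets were lower at E11.5. After quantile normalization, which gives all 8 arrays the same distribution, the median in the brightest bin was -0.02, and 54.6% were lower. The median over the 13050 genes, with the probe set of highest mean signal standing for a gene, was -0.22 as deposited and -0.0027 after quantile normalization. For many bright genes the difference after quantile normalization is therefore given beside the deposited one.

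**Figure D2:**
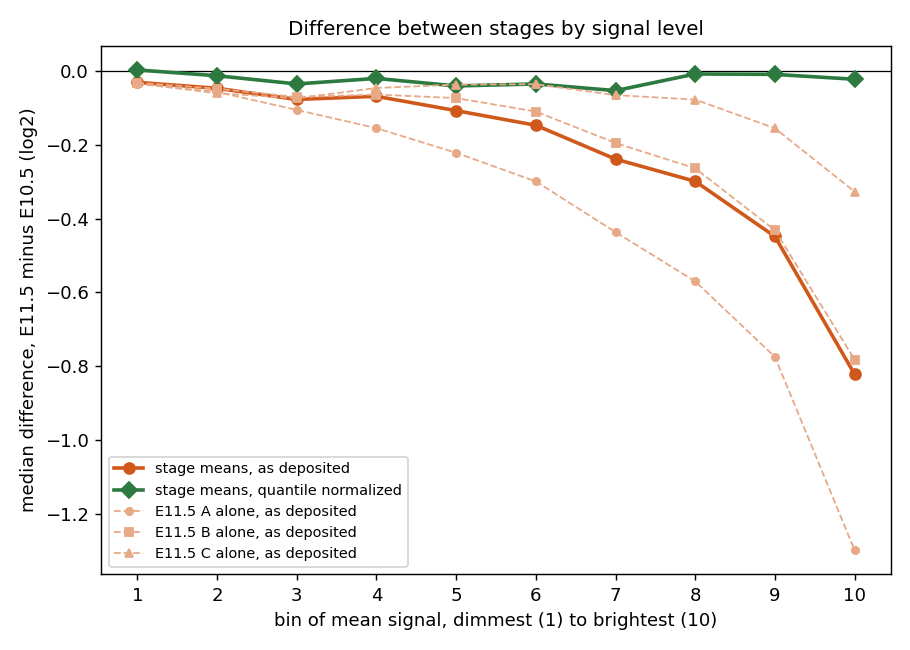
Median log2 difference, E11.5 minus E10.5 (y axis), in 10 bins of probe sets ordered by mean signal (x axis), as deposited and after quantile normalization of the 8 arrays. Dashed lines give each E11.5 array alone against the mean of the 3 E10.5 arrays. The deposited curve falls to -0.82 in the brightest bin, where the arrays alone run from -0.33 on E11.5 C to -1.30 on E11.5 A, while the normalized curve stays between -0.05 and 0.0025.

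Arrays of E10.5 correlated with each other at 0.957 to 0.981 over the probe sets above the signal filter and arrays of E11.5 at 0.973 to 0.987 (Pearson). E10.5 C stood apart. Its highest correlation was 0.960, with E10.5 B, while E10.5 B reached 0.982 with E11.5 B. The captured tissue carried transcription factors of the optic cup at high signal on all 6 arrays, among them Six6, a regulator of retinal progenitors, at 9.98 to 11.86, and Vax2, a factor of the ventral cup, at 8.25 to 9.61.

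From E10.5 to E11.5 some melanosome and matrix genes rose in the fissure, and a few developmental regulators fell. Of 27022 probe sets tested, 34 passed an adjusted p of 0.05 in limma (0.126%), 26 of them higher at E11.5 (0.0962%) and 8 lower (0.0296%). They named 23 genes that rose and 6 that fell, with 3 probe sets carrying no gene symbol. The arrays of the stages did not overlap for any of the 34, as deposited or after quantile normalization. That adds no support, because the 34 were selected by p-value on the same arrays. Of all genes, 3.76% were higher and 8.07% lower without overlap on both scales. Measured rises ran from 1.12 for C1ql3 to 4.78 for Tyr on the log2 scale. Where signals of a stage lie near the lower end of the range, as for Tyr and Ogn at E10.5 and Nkx6-1 at E11.5, a difference can understate the change, so the sizes of such differences are not ranked. After quantile normalization 42 probe sets were higher and 4 lower, so the share of rises among the calls moves with the scale.

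Few calls survived the loss of any array. Tyr, Col8a1 and Cryab kept their calls without each of the 8 arrays in turn. Without E11.5 B 25 of the 29 called genes lost theirs and without E11.5 C 24. Without E10.5 B or C 18 and 16 were lost, without E12.5 A or B 16 and 17, and without E10.5 A or E11.5 A 8 each. With E10.5 C and E11.5 A, the arrays that stood apart, left out together, 103 probe sets were called, 85 higher and 18 lower, including 29 of the 34. E11.5 A held the lowest E11.5 value for 19 of the 23 genes that rose. It was also the lowest E11.5 array over all genes, with a median of 6.46 against 6.65 on E11.5 B and 6.80 on E11.5 C.

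**Figure D3:**
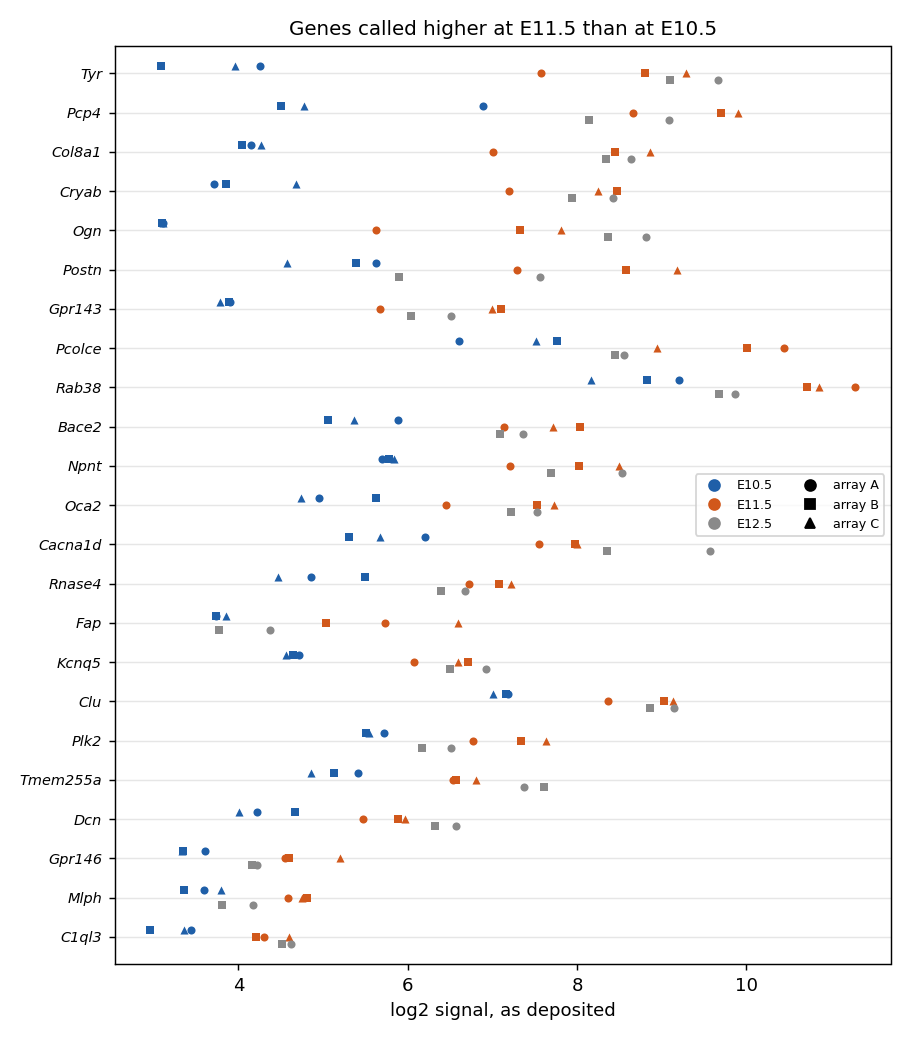
Log2 signal as deposited (x axis) of the 23 genes called higher at E11.5 (y axis, ordered by difference), with a point for every array, coloured by stage and shaped by array letter. The E10.5 and E11.5 points do not overlap for any gene, and the genes were selected by p-value on these same arrays. For Tyr the E10.5 arrays reach 4.25 and the lowest E11.5 array is at 7.57.

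Genes of the melanin pathway were among those that rose. Tyr, tyrosinase, which catalyses the first step of melanin synthesis, had log2 signals of 4.25, 3.09 and 3.96 on E10.5 arrays A, B and C and 7.57, 8.81 and 9.28 on E11.5 arrays A, B and C. Each E10.5 value lay below the median signal of its array, and all E11.5 values were above all of them. The difference was 4.78 (SE 0.42, 27.6-fold as measured, limma adjusted p = 0.00159). Of its 3 probe sets another was also called, and the third differed by 1.04 (adjusted p = 0.181), with overlapping arrays.

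Promoters are shown for the called melanosome genes that have an entry in the RefSeq table (assembly GRCm38.p6), because these genes rose together and MITF, the regulator of melanin genes, is known to bind E-box sequences. Each run covers 250 bases before to 50 after the start site, 300 in all. Capitals mark matches to CATGTG or CACGTG, searched on both strands, where a match to CATGTG on the other strand reads CACATG. Gpr143, Rab38 and Bace2 are named only. The lines give the Tyr window on chr7:87493463-87493762, minus strand, the Oca2 window on chr7:56239509-56239808, plus strand, and the Mlph window on chr1:90914850-90915149, plus strand.
Tyr: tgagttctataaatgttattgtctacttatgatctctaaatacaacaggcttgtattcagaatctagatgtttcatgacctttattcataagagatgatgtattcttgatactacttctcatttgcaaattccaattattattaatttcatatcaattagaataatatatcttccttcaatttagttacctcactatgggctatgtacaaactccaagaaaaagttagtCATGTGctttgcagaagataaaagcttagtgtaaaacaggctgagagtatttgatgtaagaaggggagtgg
Oca2: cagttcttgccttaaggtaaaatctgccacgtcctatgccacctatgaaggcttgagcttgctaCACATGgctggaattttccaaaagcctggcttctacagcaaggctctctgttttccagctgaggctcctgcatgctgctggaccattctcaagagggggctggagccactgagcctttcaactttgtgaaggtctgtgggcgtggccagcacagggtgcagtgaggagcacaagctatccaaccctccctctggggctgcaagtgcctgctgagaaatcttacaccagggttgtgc
Mlph: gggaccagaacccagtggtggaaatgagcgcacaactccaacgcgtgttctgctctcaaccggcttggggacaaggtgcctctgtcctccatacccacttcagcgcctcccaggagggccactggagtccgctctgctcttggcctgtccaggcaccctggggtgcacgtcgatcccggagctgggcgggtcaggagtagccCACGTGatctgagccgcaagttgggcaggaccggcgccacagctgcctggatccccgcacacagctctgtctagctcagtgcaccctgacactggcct

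The match lay 21 bases before the start site of Tyr, 186 before that of Oca2 and 48 before that of Mlph, where it was CACGTG. Among 32851 windows of the same length, 14.2% held CATGTG and 7.15% held CACGTG on either strand. A match describes the letters of the window and does not show that a factor binds there.

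Other melanosome genes were called as well. Gpr143, a receptor of the melanosome membrane, measured 3.90, 3.89 and 3.78 at E10.5 and 5.67, 7.10 and 6.99 at E11.5, in array order A, B and C as in all such triplets below. The E10.5 values lay close together, and the gene rose by 2.73 (SE 0.33, adjusted p = 0.0143). Oca2, a transporter that sets melanosome pH, measured 4.95, 5.63 and 4.74 and then 6.45, 7.52 and 7.73. It rose by 2.13 (SE 0.34, adjusted p = 0.0401), and its lowest E11.5 value was that of E11.5 A.

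Rab38, a small GTPase that delivers enzymes to melanosomes, was read on its called probe set at 9.20, 8.83 and 8.16 at E10.5 against 11.29, 10.72 and 10.86 at E11.5. Here E11.5 A was the highest array, unlike for most of the genes, and the rise was 2.22 as deposited (SE 0.32, adjusted p = 0.0318) and 2.95 after quantile normalization. The called probe sets of Rab38, Bace2, Clu, Npnt, Cacna1d and Sall4 carry a manufacturer's mark for probes that can match other transcripts, as does the set read for Tyrp1. The unmarked probe set of Rab38 measured 6.81, 5.62 and 5.55 and then 6.61, 7.26 and 8.42, overlapping as deposited, and was not called (difference 1.44, adjusted p = 0.161). Mlph, melanophilin, which links melanosomes to the motor myosin Va, measured 3.60, 3.36 and 3.79 and then 4.58, 4.81 and 4.75. Its rise of 1.13 (SE 0.17, adjusted p = 0.0359) started from signals below the median of each array. Bace2, a protease that cuts the melanosome protein Pmel, measured 5.89, 5.06 and 5.36 and then 7.14, 8.03 and 7.72, a rise of 2.20 (SE 0.29, adjusted p = 0.022). All 5 of its probe sets had the same sign, but only sets with the manufacturer's mark were called. The unmarked sets of Bace2 differed by 0.34 to 1.09 and did not pass (adjusted p = 0.143 to 0.312).

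Over the list of melanin synthesis and melanosome genes, 6 of 23 measured members were called higher, 0 lower, and 17 did not pass. Tyr, Gpr143 and Mlph, with E10.5 means of 3.77, 3.86 and 3.58, passed the signal filter (3.94) only through the later stages. Over all 13050 genes, 20 (0.153%) were called higher and 3 (0.023%) lower on the probe set that stood for the gene. The list's median difference was 1.02 as deposited and 1.15 after quantile normalization, or 1.24 and 1.15 relative to the median of all genes. Arrays of the stages did not overlap, with E11.5 higher on both scales, for 10 of the 23, against 491 of 13050 genes (3.76%).

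The enzymes next to tyrosinase did not pass the test. Tyrp1, which oxidizes a later intermediate, measured 8.49, 6.89 and 6.36 at E10.5 and 9.04, 9.72 and 10.07 at E11.5, without overlap, a difference of 2.36 (SE 0.48, adjusted p = 0.1). It was among the genes that quantile normalization brought past the threshold. Dct, dopachrome tautomerase, measured 9.93, 8.69 and 8.22 and then 9.40, 10.06 and 10.67, so that E10.5 A overlapped the later stage, with a difference of 1.09 (adjusted p = 0.221). After quantile normalization its arrays did not overlap, and the difference was 1.68. Pmel, the fibril protein of the melanosome, measured 9.70, 7.60 and 8.20 and then 9.47, 10.43 and 11.05, again with E10.5 A the highest of its stage and above E11.5 A. Its difference was 1.82 as deposited and 2.42 after quantile normalization, where the arrays did not overlap. Rab27a, the GTPase that recruits Mlph, differed by 1.47 (adjusted p = 0.0942) and Gpnmb, a melanosome glycoprotein, by 1.21 (adjusted p = 0.144), both without overlap.

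Genes of melanosome biogenesis that many cell types use did not pass. Hps1, Hps3, Hps4, Hps5 and Hps6, subunits of complexes that sort melanosome cargo, differed by -0.73 to -0.06, with the arrays overlapping for each after quantile normalization. Mitf itself differed by -0.03 as deposited and 0.68 after quantile normalization, and Otx2, another pigment epithelium regulator, by -0.48 and 0.28, so the sign of Otx2 and Mitf depends on the scale. In the list of pigment epithelium regulators and functions, 0 of 14 measured genes were called, with a median of -0.14 as deposited and 0.14 after quantile normalization. Its member nearest to a call was Rlbp1, a retinoid carrier, at 5.28, 4.26 and 4.33 and then 5.92, 6.58 and 7.01, a difference of 1.88 (SE 0.34, adjusted p = 0.076). Trpm1, a channel of pigment cells, was called after quantile normalization on a probe set that differed by 1.88 as deposited, while its probe set of highest signal differed by -0.71. A further probe set of Trpm1 was higher by 2.39 without overlap on both scales but was not called (adjusted p = 0.0951). As deposited, the probe sets of Trpm1 thus disagreed in sign.

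Several extracellular matrix genes rose. Ogn, the small leucine-rich proteoglycan osteoglycin, measured 3.10, 3.09 and 3.11 on the E10.5 arrays and 5.63, 7.32 and 7.81 on the E11.5 arrays. The E10.5 values sat at the floor of the signal range, so the rise of 3.82 (SE 0.43, 14.1-fold, adjusted p = 0.00893) understates any larger change. Dcn, decorin, which binds collagen fibrils, measured 4.22, 4.66 and 4.002 and then 5.48, 5.88 and 5.97 and rose by 1.48 (SE 0.23, adjusted p = 0.0359). These were 2 called of 6 measured small leucine-rich proteoglycans, with 0 lower, beside 0.153% of all genes called higher. Lum, lumican, at 3.35, 3.37 and 3.05 and then 4.45, 4.37 and 5.60, did not pass (difference 1.55, adjusted p = 0.139), nor did Bgn, biglycan, whose highest E11.5 value was the 6.95 of E11.5 A. The median of the 6 was 1.31 as deposited and 1.42 after quantile normalization. A further 6 members lay below the signal filter, which used the mean over all 8 arrays (3.94). Ogn and Lum, with E10.5 means of 3.10 and 3.26, passed it only through the later stages. The counts and the median of this list therefore lean towards members that are high after E10.5.

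Col8a1, a short-chain collagen of vessel and eye basement membranes, measured 4.14, 4.04 and 4.27 at E10.5 and 7.003, 8.45 and 8.86 at E11.5. Each E10.5 value lay below the median of its array, and the measured rise was 3.95 (SE 0.39, adjusted p = 0.0024). The gene's other kept probe set differed by 1.15 without overlap and was not called (adjusted p = 0.109). Postn, periostin, a matricellular protein of fibrous tissue, measured 5.62, 5.39 and 4.57 and then 7.29, 8.58 and 9.18, a rise of 3.15 (SE 0.51, adjusted p = 0.0401). E11.5 C was its highest array and E10.5 C its lowest. Pcolce, which speeds the trimming of procollagen, measured 6.61, 7.76 and 7.52 and then 10.45, 10.004 and 8.95, so that E11.5 A was highest, and rose by 2.50 (SE 0.40, adjusted p = 0.0401). The other kept probe set of Pcolce differed by only 0.41, without overlap, and was not called (adjusted p = 0.211). Fap, a serine protease of the surface of activated fibroblasts, measured 3.74, 3.73 and 3.86 and then 5.73, 5.04 and 6.60 and rose by 2.01 (SE 0.32, adjusted p = 0.0401), with E11.5 B the lowest of its stage.

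Most collagen genes did not pass the test. Of 27 measured genes of interstitial collagens and their processing, 3 were called higher (Col8a1, Postn and Pcolce), beside 0.153% of all genes, and 24 did not pass. Without overlap on both scales 6 of the 27 were higher and 2 lower, beside 3.76% and 8.07% of all genes. The list's median was -0.11 as deposited and turned to 0.12 after quantile normalization. Col3a1, a fibrillar collagen of loose connective tissue, measured 6.18, 6.68 and 6.34 and then 8.08, 7.32 and 7.62 without overlap (difference 1.27, adjusted p = 0.143). Col1a2, a chain of type I collagen, measured 6.30, 6.80 and 7.94 and then 7.79, 8.19 and 8.51, with E10.5 C above E11.5 A (difference 1.15, adjusted p = 0.172). Col9a1, a collagen of the inner optic cup, was among the brighter genes and differed by -0.67 as deposited and 0.31 after quantile normalization. Tgfbi, a secreted adhesion protein, measured 5.76, 5.64 and 4.21 and then 7.01, 7.18 and 7.66 (difference 2.08, adjusted p = 0.109).

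In the basement membrane list 1 of 24 measured genes was called, beside 0.153% of all genes called higher. Npnt, nephronectin, an integrin ligand, measured 5.70, 5.78 and 5.84 at E10.5 and 7.21, 8.02 and 8.50 at E11.5. Its E10.5 arrays lay close together, and it rose by 2.14 (SE 0.33, adjusted p = 0.0359), with the 3 other probe sets of the gene also higher but not called. Nid2 and Nid1, the nidogens that bridge laminin and collagen IV networks, differed by 1.16 (adjusted p = 0.118) and 0.73 (adjusted p = 0.211), without overlap. Lamb1 and Col4a1, core chains of laminin and of collagen IV, differed by -0.23 and -0.37 as deposited and 0.72 and 0.01 after quantile normalization, and their signs therefore depend on the scale. The list's median was -0.01 and 0.28 on those scales.

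The transcription factors that mark periocular mesenchyme did not pass the test. Foxc1, needed for the anterior segment of the eye, measured 4.25, 5.03 and 4.60 at E10.5 and 6.04, 5.76 and 6.31 at E11.5, a difference of 1.41 (SE 0.28, adjusted p = 0.0958). Prrx1, a mesenchymal homeobox factor, measured 5.14, 4.51 and 3.68 and then 5.42, 5.53 and 6.77 (difference 1.46, adjusted p = 0.156). Over the 15 measured factors 0 were called, 5 lay higher at E11.5 without overlap on both scales and 1 lower (3.76% and 8.07% of all genes), and the median was 0.24 (0.33 after quantile normalization). Their summed log2 signal was 9.12 to 9.37 at E10.5 and 9.57 to 9.94 at E11.5. In bulk tissue, more cells of a type and more RNA per cell cannot be told apart, and the part of mesenchyme content in the matrix rises was not tested.

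Markers of other tissues that a laser cut can include moved to differing extents. Lens markers other than Cryab gave no call, and 10 lens genes were below the filter. Cryaa, the main lens crystallin alpha chain, was at 4.16, 3.96 and 4.22 and then 4.31, 4.12 and 3.96, close to the lower end of the range. Prox1 measured 4.64, 6.13 and 2.95 and then 8.07, 6.93 and 5.84. Its arrays overlapped (difference 2.38, adjusted p = 0.159, 2.57 after quantile normalization). Pitx3 and Maf went the other way, by -0.49 and -0.999, also overlapping. Of the 11 measured lens genes, Cryab included, 3 differences were above 0, and the median was -0.13. The summed signal of 8 surface ectoderm markers was 8.44 to 8.72 at E10.5 and 9.51 to 9.99 at E11.5. The keratin Krt18 differed by 1.78 (adjusted p = 0.143), Epcam by 1.61 with overlapping arrays, and Dsp by -0.74. On E11.5 A Epcam, at 8.41, was brighter than Krt18, at 7.89. Krt14, Cdh1 and Trp63 were below the filter. The summed signal of 14 endothelial markers was 9.6 to 9.94 and then 9.98 to 10.3, with Pecam1 and Cdh5 below the filter. For 12 erythroid markers the ranges overlapped, at 14.2 to 14.6 and 13.5 to 14.7. No gene of these lists other than Cryab was called by limma, and their part in the rises was not tested.

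Of 15 measured macrophage markers 0 were called, with a median of 0.37 (0.46 after quantile normalization). Their summed signal was 10.1 to 12.5 at E10.5 and 12.6 to 12.9 at E11.5. It followed Laptm5, a lysosomal protein of blood cells, read only on the brightest of its 5 kept probe sets. That set measured 6.49, 12.30 and 7.32 and then 12.23, 12.35 and 12.50. E10.5 B thus carried this probe set at the E11.5 level, and the difference of 3.65 did not pass (SE 1.09, adjusted p = 0.159). Mpeg1, a pore protein of macrophages, measured 5.12, 5.46 and 4.59 and then 6.95, 6.25 and 6.68 without overlap (difference 1.57, adjusted p = 0.0615), while Csf1r, the growth factor receptor of the lineage, differed by 0.06 (adjusted p = 0.954).

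The remaining rises were of varied function. Cryab, alpha B crystallin, a chaperone of lens and muscle, measured 3.71, 3.85 and 4.67 at E10.5 and 7.20, 8.47 and 8.25 at E11.5. It rose by 3.89 (SE 0.36, 14.8-fold, adjusted p = 0.00159). Clu, clusterin, an extracellular chaperone, measured 7.19, 7.16 and 7.01 and then 8.37, 9.03 and 9.13 and rose by 1.72 (SE 0.26, adjusted p = 0.0359). The E10.5 arrays of Clu lay close together, and its E11.5 A value was the lowest of that stage. The probe set of Clu without the mark for other transcripts differed by 0.53, overlapping as deposited, and was not called (adjusted p = 0.231). Plk2, a kinase induced by growth and stress signals, measured 5.72, 5.51 and 5.54 and then 6.77, 7.34 and 7.63 and rose by 1.66 (SE 0.25, adjusted p = 0.0359). The other kept probe set of Plk2 measured 4.55, 6.86 and 5.37 and then 11.52, 7.58 and 5.59. It overlapped and was not called (difference 2.64, adjusted p = 0.236).

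Pcp4, a small calmodulin-binding protein of neurons, measured 6.89, 4.50 and 4.77 at E10.5 and 8.66, 9.70 and 9.90 at E11.5. E10.5 A was well above the other arrays of its stage, and the rise of 4.03 carried the widest error of the called genes (SE 0.56, adjusted p = 0.0278). It was the single call among 24 measured genes of retinal neurogenesis and neurons (0.153% of all genes were called higher), whose median was -0.15 (-0.12 after quantile normalization). Early neuronal genes showed no call, with Atoh7, which starts ganglion cell formation, at -0.13 and Tubb3, a neuronal tubulin, at -0.12. Insm1, a factor of newborn neurons, measured 3.70, 3.26 and 4.21 and then 4.35, 5.53 and 3.98, overlapping, against 10.39 and 11.32 on the E12.5 arrays A and B.

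Channel subunits were also among the rises. Cacna1d, the pore of an L-type calcium channel, measured 6.20, 5.31 and 5.68 and then 7.56, 7.97 and 7.998 and rose by 2.11 (SE 0.34, adjusted p = 0.0401). Kcnq5, a potassium channel subunit, measured 4.71, 4.65 and 4.57 and then 6.07, 6.71 and 6.60 and rose by 1.82 (SE 0.23, adjusted p = 0.0174). It has 2 kept probe sets, and the other differed by -0.09. Kcnj3, a subunit of G protein-gated potassium channels, narrowly missed the threshold at 4.63, 3.73 and 3.98 and then 5.49, 6.04 and 6.79 (difference 1.99, SE 0.33, adjusted p = 0.0502).

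Rnase4, a secreted ribonuclease, measured 4.85, 5.50 and 4.47 and then 6.72, 7.08 and 7.22 (rise 2.06, adjusted p = 0.022). Tmem255a, a membrane protein, rose by 1.50 (adjusted p = 0.0353). It measured 5.41, 5.13 and 4.86 at E10.5 and 6.53, 6.57 and 6.81 at E11.5. The rises of Gpr146, an orphan receptor, by 1.35 (adjusted p = 0.0278) and of C1ql3, a secreted protein of synapses, by 1.12 (adjusted p = 0.0359) started from signals near the lower end of the range.

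The 6 genes that fell included several transcriptional regulators. With the E10.5 and E11.5 arrays alone, or with either E12.5 array left out, no probe set was called lower. Nkx6-1, a homeobox factor that hedgehog signals induce in the ventral neural tube, measured 5.15, 5.31 and 6.35 at E10.5 and 3.80, 3.93 and 3.93 at E11.5. E10.5 C was the highest array, and the E11.5 values lay close together near the lower end of the range. The gene fell by 1.72 (SE 0.26, adjusted p = 0.0359), and the difference after quantile normalization was -1.71. Scube2, which sheds lipid-bearing hedgehog ligands from the cells that make them, measured 6.27, 7.11 and 6.80 and then 5.53, 4.90 and 4.82, with E11.5 A the highest of its stage. It fell by 1.64 (SE 0.26, adjusted p = 0.0401).

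Of 18 measured hedgehog genes these 2 were called lower, beside 0.023% of all genes, 0 higher, and 16 did not pass. Gli1, the transcription factor that reports pathway activity, measured 4.92, 5.32 and 4.76 and then 4.48, 4.12 and 4.44 without overlap, a difference of -0.65 (adjusted p = 0.159, -0.61 after quantile normalization). Ptch1, the receptor and also a target, differed by -0.96 as deposited and -0.33 after quantile normalization. Gas1 and Cdon, co-receptors, differed by 0.45 and 0.13. The list's median was -0.32, or -0.10 relative to all genes. The ligand Shh lay below the filter.

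**Figure D4:**
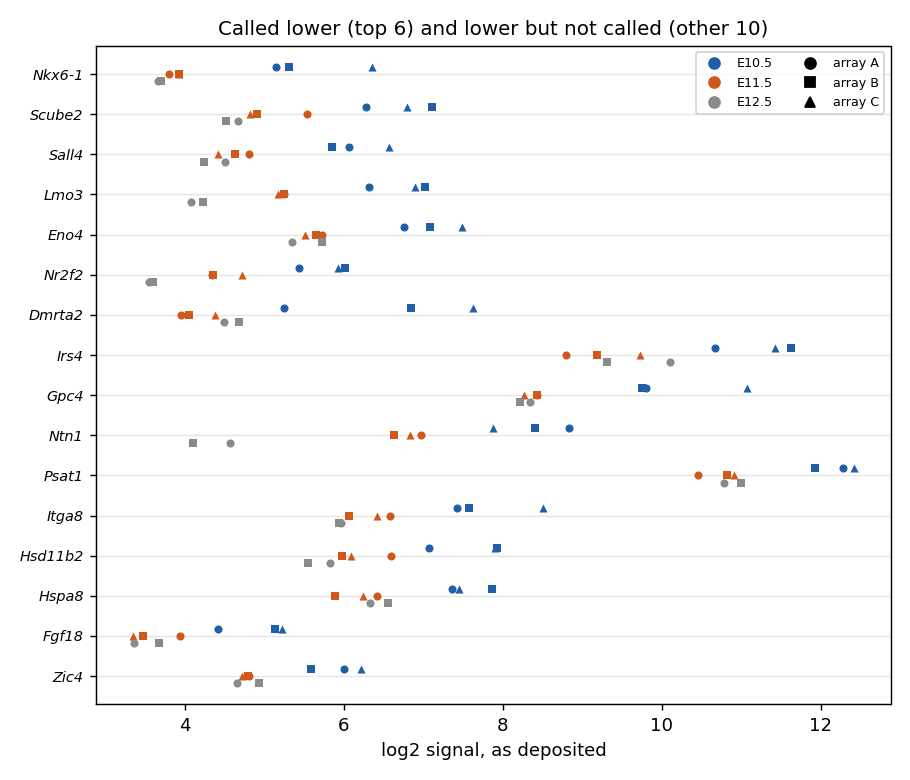
Log2 signal as deposited (x axis) of the 6 genes called lower at E11.5 (upper rows) and of 10 genes that were lower without overlap on both scales but missed the threshold (lower rows), with a point for every array, coloured by stage and shaped by array letter. For Nkx6-1 the E11.5 arrays reach 3.93 and the lowest E10.5 array is at 5.15.

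Nr2f2, the nuclear receptor COUP-TFII of the developing eye, measured 5.44, 6.02 and 5.93 and then 4.34, 4.35 and 4.72 on the called probe set. All 6 of its probe sets were lower at E11.5, from -0.55 to -2.08, and the called set fell by 1.33 (SE 0.20, adjusted p = 0.0359). Sall4, a zinc finger factor of early embryonic cells, measured 6.07, 5.86 and 6.57 and then 4.81, 4.64 and 4.42 and fell by 1.54 (SE 0.22, adjusted p = 0.0318). Its brighter probe set differed by -1.15 (adjusted p = 0.116). Lmo3, a LIM-only transcription cofactor, measured 6.31, 7.02 and 6.90 and then 5.25, 5.25 and 5.18, where the E11.5 arrays lay close together, and fell by 1.52 (SE 0.22, adjusted p = 0.0318). Eno4, an enolase family member, measured 6.76, 7.08 and 7.48 and then 5.72, 5.65 and 5.51 and fell by 1.48 (SE 0.24, adjusted p = 0.0401).

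Most genes that pattern the ventral cup or are tied to fissure closure did not pass the test. Of 21 measured members of the ventral optic cup and stalk list, 1 was called lower on the probe set standing for the gene (Nkx6-1), and Nr2f2 was called on another of its probe sets (0.023% of all genes were called lower). As deposited 3 of the 21 differences were above 0, and 8 after quantile normalization. Without overlap on both scales 4 were lower and 1 higher, beside 8.07% and 3.76% of all genes. Ntn1, netrin-1, a secreted cue present at the fissure margins that is needed for fusion, measured 8.83, 8.40 and 7.88 at E10.5 and 6.97, 6.63 and 6.83 at E11.5. The arrays did not overlap, and the difference of -1.56 missed the threshold (SE 0.27, adjusted p = 0.0615, -1.30 after quantile normalization). The E12.5 arrays A and B stood at 4.56 and 4.10. Vax1, a homeobox factor of the stalk and fissure, measured 8.66, 9.01 and 8.97 and then 7.60, 7.81 and 7.89 (difference -1.11, adjusted p = 0.109, -0.76 after quantile normalization).

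Vax2 measured 9.38, 8.84 and 8.36 and then 8.25, 8.999 and 9.61, overlapping, with a difference of 0.09 (SE 0.38, adjusted p = 0.911). Aldh1a3, the retinoic acid enzyme of the ventral retina, measured 12.20, 11.74 and 11.14 and then 10.85, 11.64 and 12.24, and its difference of -0.11 as deposited turned to 0.81 after quantile normalization. Cyp1b1, a cytochrome that also makes retinoic acid, measured 9.43, 9.49 and 9.56 and then 9.61, 10.47 and 10.30. Its difference of 0.63 (adjusted p = 0.265) passed the threshold after quantile normalization, at 1.27. Tbx2 and Tbx3, T-box factors of the cup, were highest on E10.5 C, which read 8.48 and 6.72 against at most 6.02 and 5.13 on the other E10.5 arrays. The list's median was -0.46 as deposited and -0.08 after quantile normalization.

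Several further genes were separate between the stages but missed the threshold, and their values are given without a call. Fgf18, a growth factor, measured 4.42, 5.13 and 5.22 and then 3.94, 3.47 and 3.34 (difference -1.34, adjusted p = 0.061). Zic4, a zinc finger factor of dorsal neural tissue, measured 6.01, 5.58 and 6.22 and then 4.81, 4.79 and 4.71 (difference -1.17, adjusted p = 0.069). Dmrta2, a factor of the anterior neural plate, had the largest of these differences, -2.44, and its E10.5 values of 5.25, 6.84 and 7.63 were widely spread (adjusted p = 0.0786). Irs4, an insulin receptor substrate, Gpc4, a cell surface glypican, and Itga8, the integrin chain that binds nephronectin, differed by -2.01, -1.83 and -1.48 as deposited and by -1.33, -1.28 and -1.28 after quantile normalization.

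On the higher side, Acta2, smooth muscle actin, measured 4.39, 4.89 and 4.92 and then 5.81, 6.89 and 6.46 (difference 1.66, adjusted p = 0.0517). Of 8 measured smooth muscle and pericyte genes, 2 were higher and 3 lower without overlap on both scales (3.76% and 8.07% of all genes). Tagln and Notch3 were among the lower, at -0.36 and -0.62, and the list's median was -0.10 (-0.03 after quantile normalization). Wls, the carrier that secretes Wnt proteins, measured 5.08, 5.996 and 5.60 and then 6.94, 6.92 and 7.47 (difference 1.55, adjusted p = 0.0614), and Sytl2, a Rab27 effector, 6.28, 6.73 and 6.13 and then 7.70, 8.07 and 8.75 (difference 1.80, adjusted p = 0.0753). Acta2, Wls and Sytl2 passed after quantile normalization, which added 13 genes in all, each of them higher. Camk4, Mgll, Ddr2 and Cdc42ep3, which were also separate, differed by 1.15 to 1.50. Igf1, the insulin-like growth factor, measured 5.35, 5.18 and 4.56 and then 6.43, 6.76 and 7.85 (difference 1.98, adjusted p = 0.0951).

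Lists of bright housekeeping and proliferation genes had medians below 0 at E11.5 on the deposited scale, with no call, beside the lower upper range of those arrays. Ribosomal protein genes, 28 measured, had a median of -0.90 as deposited and -0.06 after quantile normalization, and 46 genes of oxidative phosphorylation had -0.74 and 0.03. The stages did not overlap, with E11.5 lower, for 21 of the 28 ribosomal genes as deposited and for 1 on both scales. Over all genes these counts were 2894 (22.2%) and 1053 (8.07%), and the higher counterpart as deposited was 504 (3.86%). The deposited medians of these groups thus moved with the scale of the arrays.

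Cell cycle genes had a median below 0 on both scales. The median of 55 measured genes was -0.86 as deposited and -0.29 after quantile normalization, and 20 of the 55 were lower without overlap on both scales (8.07% of all genes). Uhrf1, which keeps DNA methylation through replication, measured 9.30, 9.19 and 9.27 and then 7.48, 7.83 and 8.59 (difference -1.28, adjusted p = 0.139, -0.90 after quantile normalization). Mcm5, a subunit of the replicative helicase, measured 10.93, 10.33 and 11.75 and then 9.44, 9.40 and 9.48 (difference -1.56, adjusted p = 0.131). After quantile normalization its difference was -0.83, and its arrays overlapped. Mki67, a general marker of cycling cells, differed by -0.98 and -0.04 on those scales. After a stretch of every array to a common median and 99th percentile the median was -0.23 for the cell cycle list and 0.22 for the ribosomal list, so the latter changed sign.

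Retinal progenitor factors showed a like pattern. Of 24 measured, 0 were called, 8 were lower and 2 higher without overlap on both scales (8.07% and 3.76% of all genes), and the median was -0.54 as deposited and -0.20 after quantile normalization. Fzd5, a Wnt receptor of the eye field, measured 12.50, 12.20 and 12.07 and then 10.19, 10.99 and 11.25, Sox2, a progenitor factor, 11.45, 11.40 and 11.42 and then 9.75, 10.26 and 10.62, and the differences of -1.45 and -1.21 shrank to -0.51 and -0.41 after quantile normalization. The E12.5 arrays A and B read 12.85 and 12.88 for Fzd5 and 12.21 and 12.21 for Sox2. Meis2 and Rorb, factors of the retina, were the members that lay higher, at 0.87 and 0.91.

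**Figure D5:**
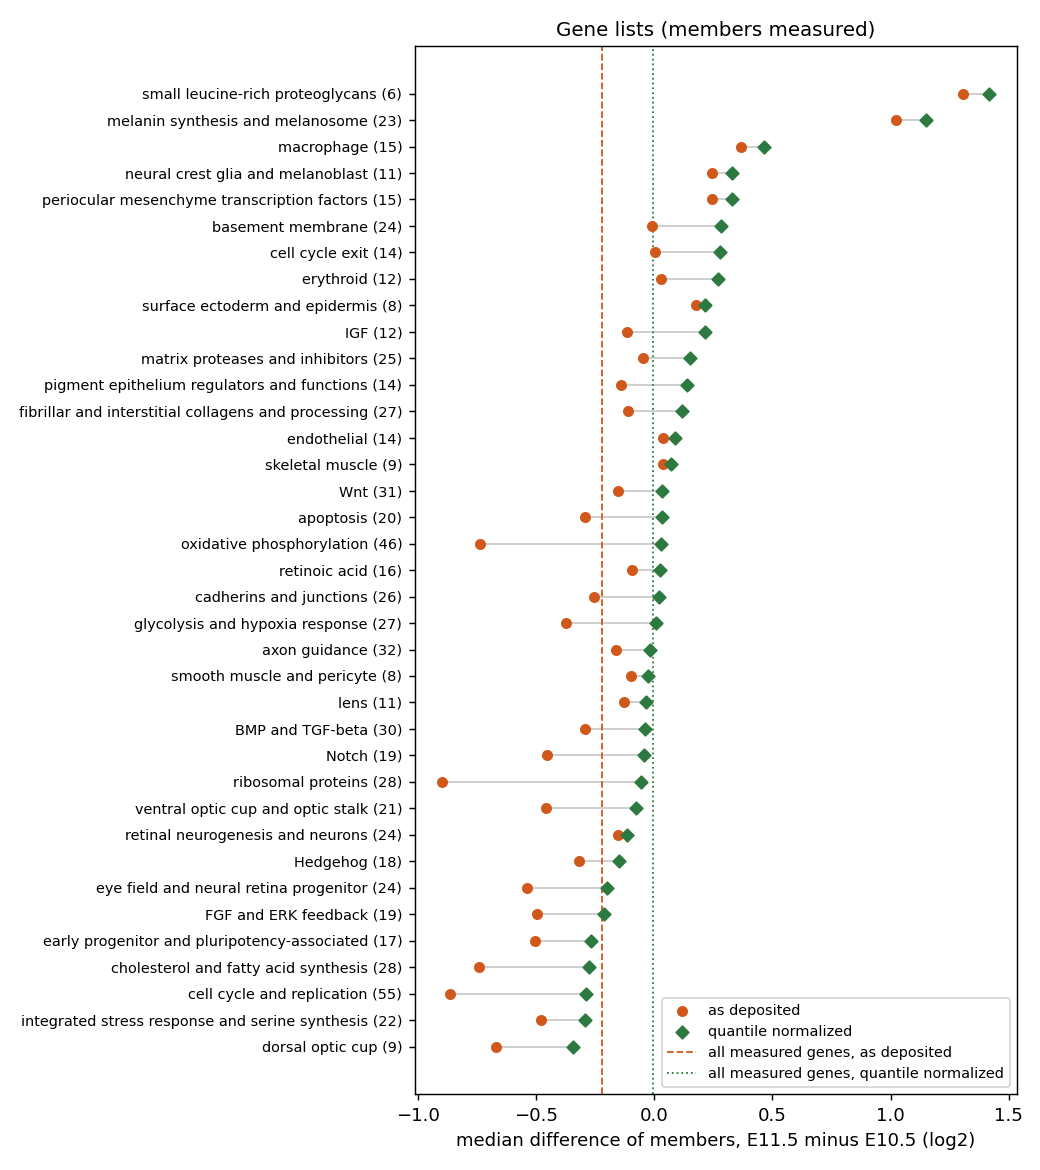
Median log2 difference, E11.5 minus E10.5 (x axis), over the measured members of 37 gene lists (y axis, number of members in brackets), as deposited and after quantile normalization. Vertical lines give the medians over all 13050 genes, -0.22 and -0.0027. Small leucine-rich proteoglycans and melanin genes lie farthest to the right on both scales, while ribosomal and oxidative phosphorylation genes move from below -0.7 to near 0. Some members of the proteoglycan and melanin lists passed the signal filter only through the later stages.

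The called genes were also read on the E12.5 arrays. Tyr stood there at 9.67 and 9.10 on arrays A and B, Ogn at 8.81 and 8.36 and Col8a1 at 8.64 and 8.35, within or above the E11.5 range. Fap stood at 4.38 and 3.77, below all E11.5 arrays, and Postn at 7.56 and 5.89, below all but E11.5 A and below all of them on E12.5 B. Pcolce, at 8.55 and 8.45, and Rab38, at 9.86 and 9.67, lay below all E11.5 arrays and above all E10.5 arrays. Of the falls, Lmo3 stood at 4.08 and 4.23 and Nr2f2 at 3.55 and 3.61, lower than at E11.5, and Nkx6-1 at 3.66 and 3.70. No test between E12.5 and the other stages is given here.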

How the data were processed

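Probe set signals of 8 Affymetrix arrays were read from the table of log2 values that the authors deposited, as its values show, and the submitters' processing notes name GCOS 1.4 without its role. The probe summary and the normalization of the arrays are not given in the sources used here. Per the labels' protocols, pooled RNA went through linear amplification, which can favour 3 prime ends and differ between arrays. Sequencing depth does not apply, and the number of arrays limits the precision.

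The 64 control probe sets and the lowest 40% by mean log2 signal over all 8 arrays (below 3.94) were left out, which kept 27022. A gene low at E10.5 could thus pass through the later stages. limma 3.58.1 in R 4.3.3 fitted stage over all 8 arrays (5 residual degrees of freedom, moderation with a trend on signal), and two-sided p-values were adjusted over all 27022 (Benjamini-Hochberg, threshold 0.05). Differences are of stage means on the log2 scale. Gene names came from the platform annotation (34754 of the single-gene probe sets matched RefSeq identifiers). In lists, the probe set of highest mean signal stood for a gene. A gene called on several probe sets is given by the one of smallest p.

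Genes were named by a rule: every called gene, up to 4 of smallest p per list, the ventral cup list, and 10 each way that missed the threshold without overlap on both scales. Others, such as Tyrp1, Mitf and Csf1r, were named for their role after their values were seen. The 37 lists, the genes and the tests were chosen with earlier results of these data known. The fit was tested on simulated data with independent noise. Those data held no scale difference between the stages and no outlying array, so the test does not cover these features. Array letters did not pair the stages: deviations from the stage means of same-letter arrays correlated at -0.39, -0.11 and -0.38. Alternatives covered array scaling, pseudocounts, filters, the model and each array left out. Those combining quantile normalization with a left-out array, normalizing the 6 arrays alone, leaving out E10.5 C with E11.5 A, and weighting gene by gene were added after seeing the data.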

Additional observations from a re-analysis of the deposited data

How the results depend on the processing

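Main counts were 34 probe sets called, 26 higher and 8 lower. Quantile normalization gave 46 (42 and 4), a stretch to a common median and 99th percentile 97 (92 and 5), median centring 31 (25 and 6), no filter 35 (26 and 9) and a filter of the lowest 60% 38 (30 and 8). Of the 34, 29, 30, 30, 33 and 27 were shared. A pseudocount of 16 gave 21 (16 and 5) and 64 gave 0, which shrinks differences of dim genes. The 6 arrays alone gave 15 (15 and 0) and no trend 6 (6 and 0). Array weights gave 5017 (1167 and 3850) from an estimate that did not converge, and weights gene by gene 2733 (664 and 2069). Leaving out 1 array gave 5 to 56 called, 5 to 53 higher and 0 to 21 lower. After quantile normalization and without 1 array, the counts were 73 (57 and 16) without E10.5 A, 63 (60 and 3) without E10.5 B, 45 (42 and 3) without E10.5 C, 56 (54 and 2) without E11.5 A, 6 (6 and 0) without E11.5 B and 9 (9 and 0) without E11.5 C. Quantile normalization of the 6 arrays gave 22 (22 and 0), and leaving out E10.5 C and E11.5 A together 103 (85 and 18). With the array letter as a replicate block 5 were called (5 and 0), although the letters do not pair the stages. The causes of these changes were not tested. None of the 29 called genes changed sign under these settings, which adds no support. Their arrays did not overlap, so leaving out an array or adding a pseudocount could not reverse a sign. Stretching raised the median over all genes from -0.22 to 0.08. At an unadjusted p of 0.05, 5254 probe sets passed.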

Other observations

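Signalling genes outside the hedgehog list gave no call. Among 31 measured Wnt genes, Rspo1, a secreted enhancer of Wnt signals, and Dkk2, a secreted modulator, were higher at E11.5 without overlap on both scales, by 1.26 (adjusted p = 0.114) and 1.90 (adjusted p = 0.153), while the receptor Fzd8 and the effector Tcf7l2 differed by -1.02 and -0.89. Rspo1 measured 3.84, 3.68 and 3.32 and then 4.75, 4.31 and 5.56. Among 30 genes of BMP and TGF-beta signalling, Bmp2, a ligand, measured 4.92, 4.76 and 4.30 and then 5.23, 5.53 and 6.02 (difference 0.93, adjusted p = 0.153), and Fst, an activin inhibitor, measured 9.65, 9.59 and 8.66 and then 7.76, 7.76 and 8.25 (difference -1.38, adjusted p = 0.143, -0.98 after quantile normalization). Of 16 genes of retinoic acid handling, Rbp4, the retinol carrier, and its receptor Stra6 lay higher without overlap, by 1.25 and 0.59, and did not pass.

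Adhesion and stress genes gave values of the same kind. Cdh6, a cadherin, measured 8.72, 9.21 and 8.98 and then 7.37, 7.07 and 7.43 (difference -1.68, adjusted p = 0.139, -1.35 after quantile normalization). Nrp2, a semaphorin receptor, measured 4.84, 5.18 and 5.72 and then 5.91, 6.65 and 6.66 (difference 1.16, adjusted p = 0.143). In the list of the integrated stress response and serine synthesis 0 of 22 genes were called and 9 were lower without overlap on both scales (8.07% of all genes), among them Asns, asparagine synthetase, at 8.99, 9.13 and 9.38 and then 7.96, 7.99 and 8.10 (difference -1.15, -0.74 after quantile normalization). The list's median was -0.48 as deposited and -0.29 after quantile normalization.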
